A study of Mus musculus with 10 samples.

Results

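The genes described here act in heme breakdown, iron storage and export, and the antioxidant response that the transcription factor NRF2 controls. They are 10 of the 32285 genes counted, namely Hmox1, Srxn1, Prdx1, Slc7a11, Gclm, Txnrd1, Nqo1, Slc40a1, Fth1 and Ftl1. They were chosen by name, though with earlier results of these data known. Their unique molecular identifiers (UMIs, each standing for 1 captured RNA molecule) were summed over the barcodes of a library that had at least 500 genes and at most 10% mitochondrial UMIs, and were scaled by all UMIs of the same barcodes to counts per 1000000 UMIs (CPM). These sums were made in 3 classes of barcodes, namely macrophage barcodes with at least 10 UMIs of C1qa, C1qb and C1qc together, the other barcodes with a UMI of Ptprc (the gene of CD45), and tumor barcodes with at least 1 UMI of Sox10 and none of Ptprc.

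The data came from SW1 melanomas grown under the skin of C3H/HeJ mice, from which CD45+ cells were sorted before droplet sequencing. Control mice drank plain water and gave libraries at day 0 (before treatment), day 7 and day 21, while mice given L-fuc, the sugar L-fucose, in their water gave libraries at day 7 and day 21. Every mouse carried the same transplanted cell line, which is 1 line and not a series of spontaneous tumors, and the labels give females of 4 to 6 weeks of age, with 3 mice in the day 0 cohort and 5 or 6 in each treatment arm. Each of these 5 conditions was 1 library of pooled mice, so conditions were compared without a test. The 95% intervals of levels and folds cover counting error only. Those of shares of barcodes cover the draw of barcodes within 1 library, not the spread between mice.

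The filters kept 31156 of 41936 barcodes, of which 5498 were macrophage, 7292 other Ptprc-positive, 12736 tumor and 5630 in none of the classes. Library totals ran from 14439185 to 119047810 UMIs, and the control day 7 library was the deepest, with 1772 macrophage and 8822 tumor barcodes. The 8 macrophage markers summed to between 4755 and 10678 CPM in macrophage barcodes and to between 149 and 377 in tumor barcodes. In tumor barcodes the glial and neural crest genes of the tumor list carried the sum of 383 to 563 CPM, whereas Tyr was at 0 in all 5 libraries and Mlana at 0 in 3 of them, so the class is called tumor by its Sox10 rule rather than by pigment genes. Tumor barcodes were numerous in spite of the CD45 sort. Sox10 was also found in 31.1% of the macrophage barcodes of control day 7 and 13.9% of those of L-fuc day 7, against 2.19% to 9.98% in the other 3 libraries. In the other Ptprc-positive barcodes these shares were 44.6% at control day 7, 18.8% at L-fuc day 7 and 0.583% to 9.90% elsewhere, and at control day 7 the tumor list summed to 396 CPM in that class against 503 in tumor barcodes, so the class is a mixture there. The day 7 libraries shared 433 barcode sequences while other pairs shared 3 to 86. Values without barcodes that held Sox10 are given beside a fold where leaving them out moved it by over 1.5 times or changed whether it passed 2-fold.

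NRF2, the product of Nfe2l2, is kept low by KEAP1 and is released by oxidants and electrophiles, after which it binds antioxidant response elements near its target genes together with small MAF proteins. BACH1 occupies many of the same elements as a repressor and leaves them when it binds heme, which is why heme catabolism and the antioxidant response share genes. Macrophages take up dying red cells and other debris, open the heme ring with heme oxygenase 1, store the iron in ferritin and export it through ferroportin. Ferritin and ferroportin messages are in addition controlled after transcription, since iron regulatory proteins bind a stem-loop called the iron responsive element (IRE) in their 5′ untranslated regions when iron is scarce.

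The sequences of these elements are shown because they differ between the members. The IRE was searched as an unpaired C and 5 paired bases on either side of the loop CAGTGN, whose last base was not G, in annotated 5′ untranslated regions of GENCODE vM21 (GRCm38), and it was found in 3 of the 10 members and in 23 of 20883 genes (0.110%). The capitals mark the 6-base loop in Slc40a1 (chr1:45925465-45925493, minus strand), Fth1 (chr19:9982732-9982760, plus strand) and Ftl1 (chr7:45459779-45459807, minus strand), each in exon 1.
Slc40a1: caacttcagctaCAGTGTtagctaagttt
Fth1: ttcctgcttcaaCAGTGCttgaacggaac
Ftl1: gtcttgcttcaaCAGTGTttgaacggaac

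Promoter windows from RefSeq (GRCm38.p6) reach from 250 bases before to 50 bases after a gene's start, and 8 of the 10 members had one; Hmox1 and Slc40a1 had no entry. The core of the antioxidant response element, TGACNNNGC on either strand, was present in the windows of Srxn1, Gclm, Prdx1 and Txnrd1, and in 12.4% of all 32851 windows. In all 4 genes the match is on the strand opposite to the gene, so the capitals show its reverse complement, at chr2:152105542-152105570 for Srxn1, chr3:122245413-122245441 for Gclm, chr4:116685456-116685484 for Prdx1 and chr10:82859104-82859132 for Txnrd1.
Srxn1: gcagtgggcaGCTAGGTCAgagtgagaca
Gclm: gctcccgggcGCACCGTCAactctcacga
Prdx1: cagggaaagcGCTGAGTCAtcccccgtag
Txnrd1: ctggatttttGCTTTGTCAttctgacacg

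Slc7a11 alone among these members held the core of the amino acid response element, TGATGNAA, which is known as a site of ATF4 and was present in 3.97% of all windows. It occurs on both strands of the Slc7a11 window, at chr3:50443661-50443689 on the strand of the gene and at chr3:50443642-50443670 on the opposite strand, and the 2 stretches overlap. A match of letters is a description of the sequence only.
Slc7a11, gene strand: ctcatgtggcTGATGCAAacctggagaat
Slc7a11, opposite strand: cctggagaatTTGCATCAtcatgcagccc

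Hmox1 (ENSMUSG00000005413, chr8:75093621-75100589, GRCm38), which encodes the inducible heme oxygenase that cleaves heme to biliverdin, carbon monoxide and iron, was highest in macrophage barcodes of every library. Its macrophage level was 1531 CPM at control day 0, 941 at control day 7, 489 at L-fuc day 7, 452 at control day 21 and 701 at L-fuc day 21. No counting intervals overlapped between these 5 levels, which ran from the day 0 library as the highest to control day 21 as the lowest. Other Ptprc-positive barcodes held 50.7 to 224 CPM, and tumor barcodes 48.0 to 118. In tumor barcodes 33.1% of the Hmox1 UMIs of control day 0 and 35.1% of those of L-fuc day 21 lay in a single barcode.

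The tumor level of Hmox1 was 6.60% to 19.6% of the macrophage level of the same library. Of the 8 macrophage markers, 7 were in tumor barcodes at no more than 3.19% of their macrophage level, and Apoe was at 2.56% to 8.61%. T cell barcodes, defined by at least 2 UMIs of Cd3d, Cd3e and Cd3g, were meant to give the level of free RNA. They held Hmox1 at 195 CPM at control day 0 and 141 at control day 7, both above the tumor level of the same library. In the remaining 3 libraries, in the order above, they held 60.8, 7.43 and 2.68, each below the tumor level. At control day 0 11.5% of T cell barcodes had an Hmox1 UMI before thinning, at a median depth of 4717.5 UMIs. At control day 7 the share was 28.9%, at a median depth of 3444.5 UMIs. The parts of free RNA and of mixed barcodes in these levels were not tested. When each barcode was thinned to 1000 UMIs, 33.5% of macrophage barcodes had an Hmox1 UMI at control day 0, 29.7% at control day 7, 20.01% at L-fuc day 7, 19.1% at control day 21 and 21.1% at L-fuc day 21. T cell barcodes had an Hmox1 UMI in 3.04%, 10.6%, 3.07%, 0% and 0% in the same order, the last of these from 52 and 26 barcodes, which allow up to 6.85% and 13.2%. Tumor barcodes had one in 5.38%, 6.95%, 5.92%, 4.93% and 6.94%, which at control day 7 is below the T cell share. The macrophage share was above the T cell share in all 5 libraries, with median depths of 5737 to 7888 UMIs in macrophage and 3445 to 8370 in T cell barcodes before thinning. Before thinning, the shares of macrophage barcodes with Hmox1 were 48.2% to 65.8%.

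The heavy chain of ferritin is encoded by Fth1 (ENSMUSG00000024661, chr19:9980598-9985098) and oxidizes iron for storage. Its macrophage level was 28514 CPM at control day 0, 22432 at control day 7, 18191 at L-fuc day 7, 23945 at control day 21 and 20556 at L-fuc day 21. Fth1 therefore made up a few percent of all macrophage UMIs in each library, while tumor barcodes held 6700 to 11591 and other Ptprc-positive barcodes 3056 to 9025 CPM. The light chain, Ftl1 (ENSMUSG00000050708, chr7:45457944-45459884), which helps the iron core to form, had macrophage levels of 19310 at control day 0, 9537 at control day 7, 8552 at L-fuc day 7, 13281 at control day 21 and 12122 at L-fuc day 21. Ftl1 ran from 2237 to 4162 CPM in tumor barcodes and from 2359 to 3946 in the other Ptprc-positive barcodes, and every macrophage value lay above all of these. Reads of the near-identical copy Ftl1-ps1 were counted at 12.7 to 91.7 CPM, so a small part of the light chain signal may be split between both genes.

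Ferroportin, the iron exporter encoded by Slc40a1 (ENSMUSG00000025993, chr1:45908068-45926523), was rare. Macrophage barcodes held 149 UMIs (28.1 CPM) at control day 0, 46 UMIs (3.35) at control day 7, 28 UMIs (1.51) at L-fuc day 7, 8 UMIs (1.04) at control day 21 and 24 UMIs (3.87) at L-fuc day 21. The high value of day 0 rested on 1 barcode that held 125 of the 149 UMIs, and without it the level was 4.56 CPM. That barcode had 44710 UMIs, among them 614 of Hmox1, 560 of Prdx1, 3013 of Fth1 and 3095 of Ftl1, but only 23 of C1qa. Other Ptprc-positive barcodes held 0 UMIs at control day 0, where the level of 3 UMIs, used as a floor for a value of 0, was 0.863 CPM. They held 33, 29, 13 and 7 UMIs in the other 4 libraries in the order given. Tumor barcodes held 4 UMIs of Slc40a1 in all, each of them in control day 7. In the other 4 libraries, with 0 UMIs, the same floor of 3 UMIs was at most 0.660 CPM.

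Srxn1, Prdx1 and Txnrd1 serve the peroxiredoxin and thioredoxin system. Sulfiredoxin, encoded by Srxn1 (ENSMUSG00000032802, chr2:152105516-152111376), repairs overoxidized peroxiredoxins, and its macrophage level was 84.1 CPM at control day 0, 46.2 at control day 7, 31.5 at L-fuc day 7, 40.8 at control day 21 and 53.1 at L-fuc day 21. It stayed between 18.4 and 23.3 in tumor barcodes and between 9.01 and 18.2 in other Ptprc-positive barcodes, so that macrophages were the highest class throughout. The peroxide-reducing enzyme Prdx1 (ENSMUSG00000028691, chr4:116685544-116700822) had macrophage levels of 1470, 989, 789, 745 and 912 CPM in the same order, and tumor levels of 1022, 780, 751, 795 and 699. Control day 21 was the only library in which tumor barcodes exceeded macrophages. Txnrd1 (ENSMUSG00000020250, chr10:82833951-82897712), the cytosolic thioredoxin reductase, showed no such separation, with 54.1, 90.9, 54.2, 63.3 and 64.7 CPM in macrophages and 44.0 to 82.0 in tumor barcodes.

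Slc7a11 and Gclm serve glutathione synthesis. The cystine importer xCT is encoded by Slc7a11 (ENSMUSG00000027737, chr3:49892526-50443614), and its macrophage level ran from 23.9 to 30.03 CPM, at 24.3, 23.9, 29.9, 26.5 and 30.03 in the same order of libraries. When the libraries are ranked by level, the counting intervals of neighbours in the rank overlap, although those of control day 7 and L-fuc day 7 do not. Other Ptprc-positive barcodes instead ranged widely, from 8.04 at control day 7 to 29.1 at control day 0, 24.7 at L-fuc day 7, 26.5 at L-fuc day 21 and 90.4 at control day 21. Tumor barcodes held 1.51 to 3.10. Within the other Ptprc-positive barcodes, those with at least 10 UMIs of the neutrophil genes S100a8 and S100a9, a limit chosen after the values were seen, numbered 3, 11, 43, 16 and 6 in the 5 libraries and carried Slc7a11 at 1004, 430, 1011, 1140 and 1344 CPM. They held 7.92% of the Slc7a11 UMIs of that class at control day 0, 11.0% at control day 7, 34.3% at L-fuc day 7, 75.9% at control day 21 and 53.2% at L-fuc day 21. At day 0 the barcodes that were neither T cells nor S100a8 and S100a9 barcodes held 80.2% of them.

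Gclm (ENSMUSG00000028124, chr3:122245557-122270732) encodes the modifier subunit of glutamate-cysteine ligase, and it followed the library more than the class. The macrophage levels were 156 CPM at control day 0, 278 at control day 7, 200 at L-fuc day 7, 57.1 at control day 21 and 69.7 at L-fuc day 21. Tumor barcodes gave 144, 315, 225, 85.9 and 85.3, and other Ptprc-positive barcodes 102, 278, 191, 49.1 and 45.6, so both day 7 libraries were high and both day 21 libraries low in each class. The transcript Gm10076 had the same order of day 7 over day 0 over day 21, with 181 to 235 CPM at day 7 and 13.4 to 28.95 at day 21 in macrophages, and its part in the Gclm result was not tested. The quinone reductase Nqo1 (ENSMUSG00000003849, chr8:107388225-107403206) was close to the limit of detection, with 1 to 60 UMIs in a class and 0.121 to 1.88 CPM, and it was too low for the test between classes.

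**Figure D1:**
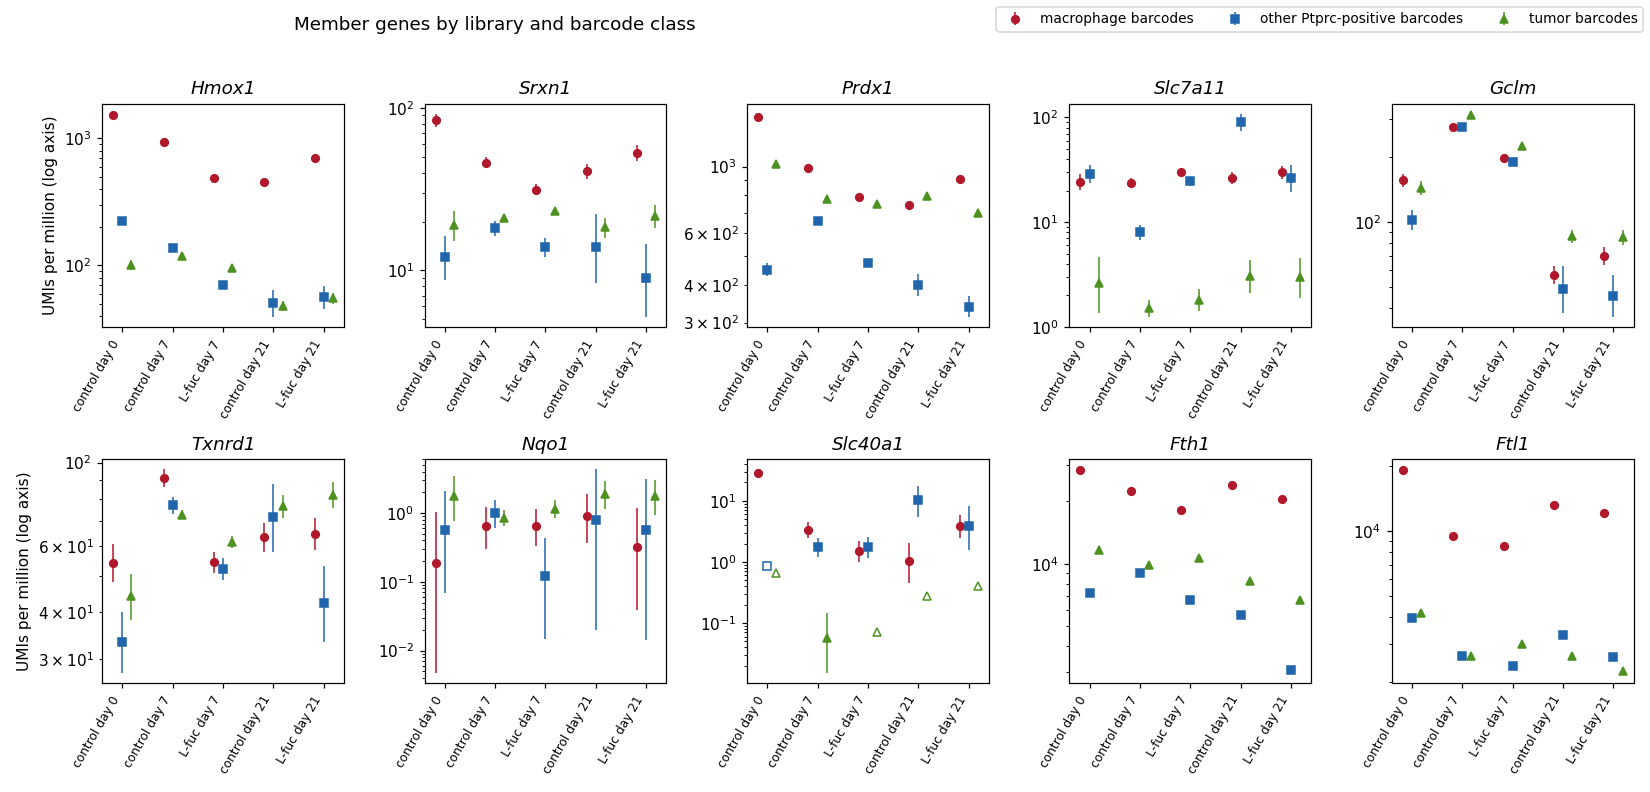
CPM (log axis, a separate range for each panel) of the 10 genes in the 5 libraries, with circles for macrophage, squares for other Ptprc-positive and triangles for tumor barcodes and bars for exact Poisson 95% intervals; open symbols in the Slc40a1 panel are values of 0 drawn at the level of 3 UMIs. Hmox1, Fth1 and Ftl1 show macrophages above both other classes in each library, while Gclm rises and falls with the library in all 3 classes.

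Which class of barcodes carried each gene was tested with edgeR's quasi-likelihood test on the 15 sums of 5 libraries and 3 classes, with the library as a block and Benjamini-Hochberg adjustment over all 13079 genes tested. Macrophages were above tumor barcodes in 9 of the 9 members tested, where 35.9% of all genes were higher and 33.1% lower. Nqo1, the member too low for the test, was higher in macrophages in 0 of 5 libraries on the CPM scale. The differences were largest for Slc40a1 (log2 7.03 ± 1.27 SE, adjusted p = 0.000631), Slc7a11 (4.13 ± 0.42, adjusted p = 1.66e-05) and Hmox1 (3.76 ± 0.29, adjusted p = 5.74e-06). The size of the Slc40a1 difference rested on tumor levels of 0 to 0.0565 CPM and lay between 6.64 and 8.66 over the alternative settings. Next in size were Ftl1 at 2.62 ± 0.20 and Fth1 at 1.87 ± 0.18, the pair that forms ferritin, and Srxn1 at 1.81 ± 0.24. Prdx1 differed by 0.83 ± 0.14 (adjusted p = 0.000469), and the smallest differences were those of Txnrd1 (0.54 ± 0.12, adjusted p = 0.00262) and Gclm (0.35 ± 0.11, adjusted p = 0.0143).

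The last of these depend on the scaling between classes. The fit used TMM factors, which scale the sums so that most genes are level. Without the factors the median difference of all genes between macrophage and tumor moved from 0.02 to −0.55 on the log2 scale, and the calls changed from 4701 higher and 4330 lower to 2973 higher and 7309 lower. On the CPM scale, as in the levels above, Gclm was higher in macrophages than in tumor barcodes in 1 of 5 libraries and Txnrd1 in 2 of 5, and without the factors their differences were −0.22 and −0.04. Prdx1 was then at 0.25 (adjusted p = 0.178), and the other 6 members remained called as higher in macrophages, among them Hmox1 at 3.21. Gclm also missed the threshold without the L-fuc day 21 library (adjusted p = 0.0596), without the filter on low counts (0.0703) and without the library block (0.620).

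Against the other Ptprc-positive barcodes, macrophages were higher in 7 of 9 members tested, where 16.7% of all genes were higher and 14.8% lower. Hmox1 differed by 3.28 ± 0.28 (adjusted p = 5.70e-05), Ftl1 by 2.30 ± 0.20, Fth1 by 2.18 ± 0.19 and Srxn1 by 2.15 ± 0.26, each of them higher in 5 of 5 libraries. Prdx1 at 1.32 ± 0.14, Gclm at 0.55 ± 0.11 and Txnrd1 at 0.53 ± 0.12 followed. Slc7a11 (0.19 ± 0.38, adjusted p = 0.719) and Slc40a1 (0.76 ± 0.99, adjusted p = 0.579) did not pass the threshold, and macrophages were the higher class in 3 and 2 of 5 libraries. Without TMM factors 5 of the 7 calls held, with Gclm at an adjusted p of 0.106 and Txnrd1 at 0.171, and the split of all calls moved from 2190 higher and 1932 lower to 1401 and 3968. The same pair was lost without the library block, at adjusted p values of 0.517 and 0.0565.

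Between tumor and other Ptprc-positive barcodes, where 26.5% of all genes were higher and 31.9% lower in tumor, 3 of 9 members were called. Prdx1 was higher in tumor barcodes by 0.49 ± 0.14 (adjusted p = 0.0129), in 5 of 5 libraries. Slc7a11 was lower, at −3.94 ± 0.43 (adjusted p = 7.76e-05), and so was Slc40a1, at −6.27 ± 1.35 (adjusted p = 0.00309). Hmox1, at −0.48 ± 0.27 with an adjusted p of 0.141, Fth1, Ftl1, Srxn1, Gclm and Txnrd1 did not pass the threshold. Without immune barcodes that held Sox10, Fth1 (0.47) passed as higher and Hmox1 (−0.66) as lower in tumor barcodes. Without TMM factors 3 members were higher in tumor barcodes, namely Prdx1, Gclm and Fth1, and the split of all calls moved from 3467 higher and 4171 lower to 5197 and 2997.

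**Figure D2:**
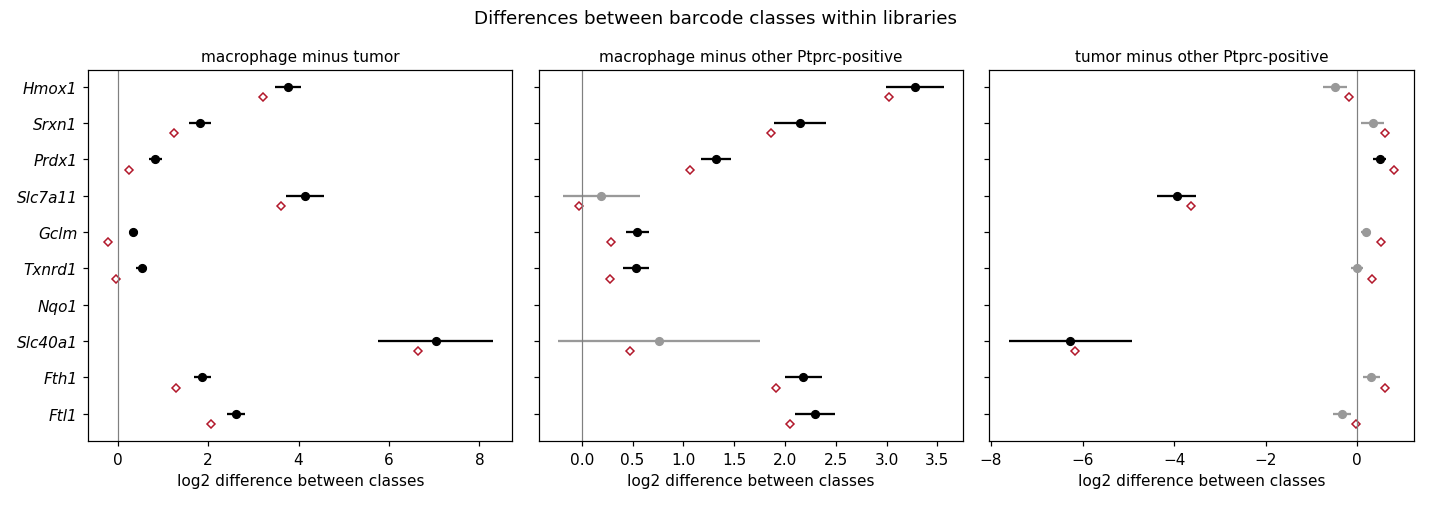
Log2 differences between classes (horizontal axes of separate range) from edgeR with bars of 1 SE, black where the adjusted p was under 0.05 and grey where it was not, and open red diamonds for the fit without TMM factors. Between macrophage and tumor barcodes all 9 members tested lie above 0 with TMM factors, and Gclm and Txnrd1 lie below 0 without them; Nqo1 was not tested.

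To ask whether L-fuc treatment went with a different level of these genes, the library of treated mice was set against the control library of the same day, and a gene was counted as changed at 2-fold or more with at least 30 UMIs over both libraries. At day 7 macrophages had less Hmox1 with L-fuc, at 489 against 941 CPM, a fold of 0.519 (95% interval 0.506 to 0.533). The other Ptprc-positive barcodes had a fold of 0.515 (0.481 to 0.552), or a log2 fold of −1.47 without those that also held Sox10, and tumor barcodes, at 96.1 against 118, one of 0.812 (0.782 to 0.843). Across the alternatives tried, the macrophage fold of Hmox1 lay between 0.479 and 0.587, the lower value without barcodes that also held Sox10. Markers of other cells moved with this comparison in the macrophage barcodes, since from control to L-fuc the summed macrophage markers went from 8035 to 4755 CPM, NK cell markers from 315 to 999.8, T cell markers from 289 to 524 and red cell genes from 706 to 3895. In the other Ptprc-positive barcodes NK cell markers went from 577 to 3288 and T cell markers from 388 to 1252, and the part of these markers in the Hmox1 folds was not tested. The thinned share of macrophage barcodes with Hmox1 was 29.7% (27.6% to 31.9%) without L-fuc against 20.01% (18.3% to 21.8%) with it. These intervals do not overlap, but they cover barcodes within 1 library each and cannot tell whether the conditions differ.

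Other redox genes were also lower in L-fuc macrophages at day 7, though by less than 2-fold. Txnrd1 had a fold of 0.596 (0.548 to 0.649), Srxn1 of 0.681 (0.607 to 0.763), Gclm of 0.718 (0.686 to 0.752) and Prdx1 of 0.799 (0.780 to 0.818). Ferritin was also below 1, with 0.811 for Fth1, close to Prdx1, and 0.897 for Ftl1 (log2 0.03, and so above 1, by the mean of single barcodes). The cystine importer Slc7a11 was higher at 1.25 (1.09 to 1.44). Of the 9 members with enough UMIs, 8 were below 1 and 1 was past 2-fold, namely Slc40a1 at 0.450 (0.271 to 0.735, 28 against 46 UMIs, and a log2 fold of −1.94 without barcodes holding Sox10), where 4.39% of 12891 genes were 2-fold lower and 3.07% higher. The median log2 fold of these 9 members was −0.48, and that of all genes in macrophages was −0.14, close to the −0.16 of Ftl1. The share of all genes below 1 was not counted, so the 8 members below 1 have no background share.

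In the other Ptprc-positive barcodes of day 7, Slc7a11 was 3.07-fold higher with L-fuc (2.54 to 3.71), the only member past 2-fold, where 9.51% of all genes were 2-fold higher and 8.28% lower. The S100a8 and S100a9 barcodes numbered 43 in the L-fuc library and 11 in the control, and their part in this difference was not tested. In tumor barcodes no member was past 2-fold, where 1.59% of genes were 2-fold higher and 4.43% lower, and the folds of the 9 members with enough UMIs ran from 0.715 for Gclm to 1.36 for Nqo1. Of the red cell genes, the hemoglobin chain Hbb-bs was at 2819 CPM in L-fuc macrophage barcodes of day 7 and at 497 in those of control. This rise was not particular to macrophage barcodes. From control to L-fuc the summed red cell genes went from 1230 to 4731 CPM in other Ptprc-positive barcodes. In tumor barcodes they went from 641 to 1569.

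At day 21 the L-fuc library had more Hmox1 in macrophages than the control, at 701 against 452 CPM, a fold of 1.55 (1.48 to 1.62). This fold lay between 1.13 and 1.69 over the alternatives, and the lowest value came from the mean of single barcodes, which gives shallow and deep barcodes equal weight. In the same macrophage barcodes red cell genes summed to 466 CPM in control and 5.65 in L-fuc, monocyte markers to 72.6 and 317, B cell markers to 50.6 and 159, and macrophage markers to 10678 and 8421, and their part in the result was not tested. The thinned share was 21.1% (17.2% to 25.4%) with L-fuc against 19.1% (16.4% to 22.1%) without it. These intervals, which again cover barcodes within 1 library each, overlapped. Srxn1 had a fold of 1.30 (1.11 to 1.53), Prdx1 of 1.22 (1.18 to 1.27) and Gclm of 1.22 (1.07 to 1.40), whereas the intervals of Txnrd1 (1.02) and Slc7a11 (1.13) included 1. Fth1 at 0.858 (0.852 to 0.865) and Ftl1 at 0.913 (0.904 to 0.921) were slightly lower, as at day 7. Prdx1 was below 1 as the mean of single barcodes, at 0.944.

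Only Slc40a1 passed 2-fold in macrophages at day 21, at 3.73 (1.62 to 9.61) from 24 against 8 UMIs, where 3.5% of 10987 genes were 2-fold higher and 0.865% lower. One barcode held 33.3% of the 24 UMIs, and once the top barcode of each library was left out too few UMIs remained for a count. The median log2 fold of the 9 members with enough UMIs was 0.29 and that of all genes 0.01. In the other Ptprc-positive barcodes Slc7a11 was lower with L-fuc, at 26.5 against 90.4 CPM (fold 0.293, 0.204 to 0.414), where 10.9% of genes were 2-fold lower and 2.88% higher, and in that class Fth1 was at 0.543 and Txnrd1 at 0.589. Hmox1 was at 1.11 (0.805 to 1.54) there, and at a log2 fold of −1.24 with the macrophage limit at 20. Tumor barcodes had no member past 2-fold, where 1.69% of genes were higher and 0.855% lower, with folds between 0.807 for Fth1 and 1.17 for Srxn1. By the mean of single barcodes, however, Slc7a11 passed 2-fold in tumor barcodes, at a log2 fold of 2.31 in place of −0.05. The Hmox1 fold of 1.15 in tumor barcodes rested on 1 L-fuc barcode with 35.1% of the UMIs, and without the top barcode of each library the levels were 36.1 CPM with L-fuc and 43.9 in control, a log2 fold of −0.28. It was −0.54 when tumor barcodes with a C1q UMI were left out.

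**Figure D3:**
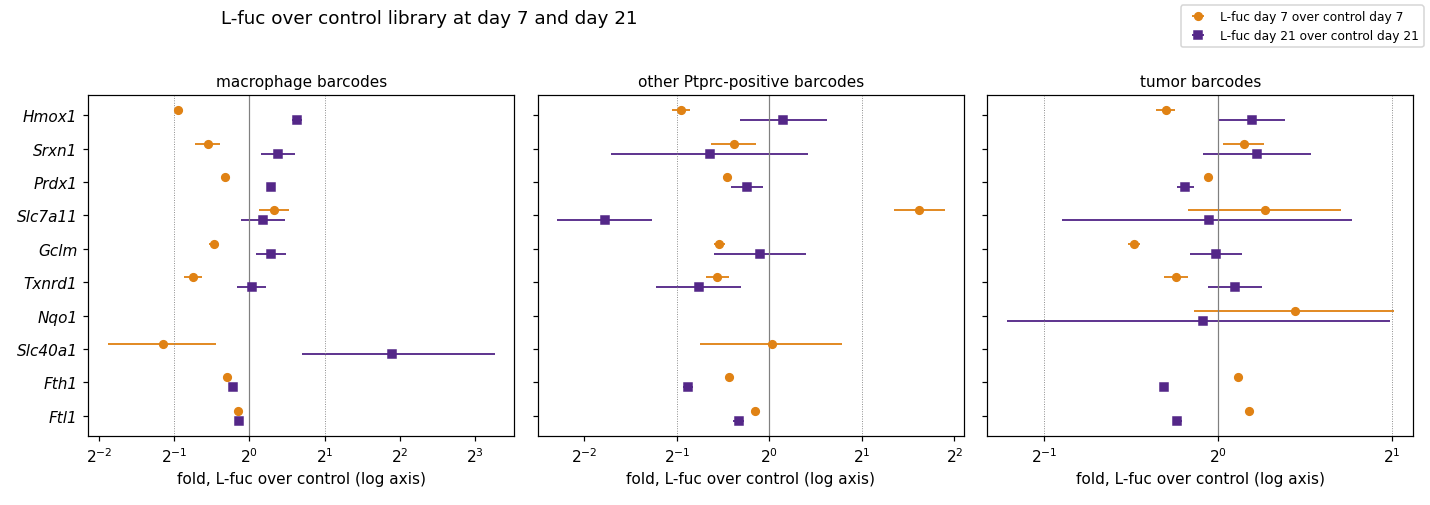
Fold of L-fuc over control (log axes of separate range) in macrophage, other Ptprc-positive and tumor barcodes, with circles for day 7, squares for day 21, bars for exact conditional 95% intervals and dotted lines at 2-fold; genes with fewer than 30 UMIs over both libraries are left blank. In macrophages Hmox1, Srxn1, Prdx1, Gclm and Slc40a1 lie below 1 at day 7 and above 1 at day 21, whereas Fth1 and Ftl1 lie below 1 at both; by the mean of single barcodes, which is not drawn, Ftl1 is above 1 at day 7 and Prdx1 below 1 at day 21.

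The control libraries were also set against each other in time, and the comparisons of day 7 with day 0 and of day 21 with day 7 both use the control day 7 library, which is in addition the control of L-fuc at day 7. From day 0 to day 7, macrophage Hmox1 was at 0.615 (0.598 to 0.632), Srxn1 at 0.549 (0.486 to 0.621) and Prdx1 at 0.672 (0.654 to 0.691), while Gclm was at 1.78 and Txnrd1 at 1.68. Ftl1 at 0.494 (0.490 to 0.498) and Slc40a1 at 0.119 (0.0837 to 0.167) passed 2-fold, where 25.2% of genes in macrophages were 2-fold higher and 2.6% lower, and the median log2 fold of all genes was 0.38. Slc40a1 was at a log2 fold of −0.65 once the top barcode of each library was left out, and Ftl1 was then no longer past 2-fold, at −0.97, nor without barcodes holding Sox10, at −0.84. In other Ptprc-positive barcodes Gclm (2.71) and Txnrd1 (2.31) were 2-fold higher and Slc7a11 (0.277) lower, where 31.2% of genes were higher and 11.7% lower, and without Sox10 barcodes Slc7a11 was at a log2 fold of −0.87, short of 2-fold. The make-up of this class also differed, since T cell markers summed to 2341 CPM at day 0 and 388 at day 7, B cell markers to 1141 and 13.3 and the tumor list to 29.3 and 396, and their part in these folds was not tested. In tumor barcodes Gclm was 2.18-fold higher and Nqo1 was at 0.481 on 60 and 8 UMIs, where 10.4% of genes were higher and 2.13% lower.

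From day 7 to day 21 in control mice, Hmox1 and Gclm were 2-fold lower in all 3 classes. The Hmox1 folds were 0.480 (0.462 to 0.498) in macrophages, 0.371 (0.285 to 0.474) in other Ptprc-positive barcodes and 0.406 (0.370 to 0.444) in tumor barcodes. For Gclm they were 0.206, 0.177 and 0.273 in the same order. The Hmox1 call ended in macrophages by the mean of single barcodes, at a log2 fold of −0.82, and in other Ptprc-positive barcodes with the macrophage limit at 20 C1q UMIs, at −0.22. Slc40a1 was also lower in macrophages (0.310, 8 against 46 UMIs), where 17.4% of genes were 2-fold lower and 3.99% higher, and Ftl1 was higher at 1.39 (1.38 to 1.40). In other Ptprc-positive barcodes Slc7a11 was 11.2-fold (8.76 to 14.4) and Slc40a1 5.88-fold (2.84 to 11.5, 13 against 33 UMIs of unequal totals) higher, where 12.3% of genes were higher and 18.3% lower. Over the alternatives the fold of Slc7a11 lay between 6.76, without barcodes holding Sox10, and 16.6, and that of Slc40a1 between 3.02 and 8.79. The S100a8 and S100a9 barcodes, 11 of 3725 at day 7 and 16 of 204 at day 21, held 75.9% of the Slc7a11 and 92.3% of the Slc40a1 UMIs of the class at day 21, against 11.0% and 0% at day 7. In tumor barcodes Slc7a11 (2.05) and Nqo1 (2.22) were higher, where 5.28% of genes were higher and 7.09% lower, but without tumor barcodes with C1q their log2 folds were 0.58 and 0.41, and Slc7a11 was at −0.18 by the mean of single barcodes.

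Within macrophages Hmox1 was concentrated in part of the barcodes. When macrophage barcodes were ordered by the share of Hmox1 among their UMIs, the top 25% held 88.7% to 91.3% of the Hmox1 UMIs of a library, which is what the ordering selects. The same barcodes held the other members at higher CPM than the remaining macrophage barcodes in nearly every case. The share of all genes that were higher there was not counted, so this tally has no background. Srxn1 was 14.1-fold higher there at control day 0, 4.09-fold at control day 7, 3.28-fold at L-fuc day 7, 4.28-fold at control day 21 and 7.21-fold at L-fuc day 21. Ftl1 was 1.88-fold to 3.04-fold higher, Fth1 1.84-fold to 2.20-fold, Prdx1 1.55-fold to 3.64-fold, Txnrd1 1.70-fold to 4.17-fold and Gclm 1.24-fold to 3.75-fold. Slc7a11 was 1.96-fold to 2.73-fold higher in 4 libraries, but at L-fuc day 7 its fold was 1.03 (0.840 to 1.25).

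The complement genes that define the class did not follow, as C1qa was at 0.536 to 1.01 times the level of the remaining barcodes and the macrophage gene Ms4a7 at 0.519 to 0.889 times. The barcodes rich in Hmox1 were thus not richer in macrophage transcripts, although C1qa and its partners are part of the class rule. Transcripts of other cells were mostly lower there too, with Sox10 at 0.0950, 0.553, 0.661, 0.423 and 1.35 times and the T cell gene Cd3e at 0.792, 0.936, 0.583, 0.751 and 0.0918 times the level of the remaining barcodes in the order of libraries above, and the part of mixed barcodes in these folds was not tested. Their median depth was 5144 UMIs against 9242.5 in the remaining barcodes at control day 0, but 13902.5 against 5710 at L-fuc day 21, and the part of depth in these folds was not tested. All 149 Slc40a1 UMIs of control day 0, of which a single barcode held 125, and 22 of the 24 of L-fuc day 21 lay in the top 25%. The share was 73.9% at control day 7, 50% at L-fuc day 7 and 50% at control day 21.

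**Figure D4:**
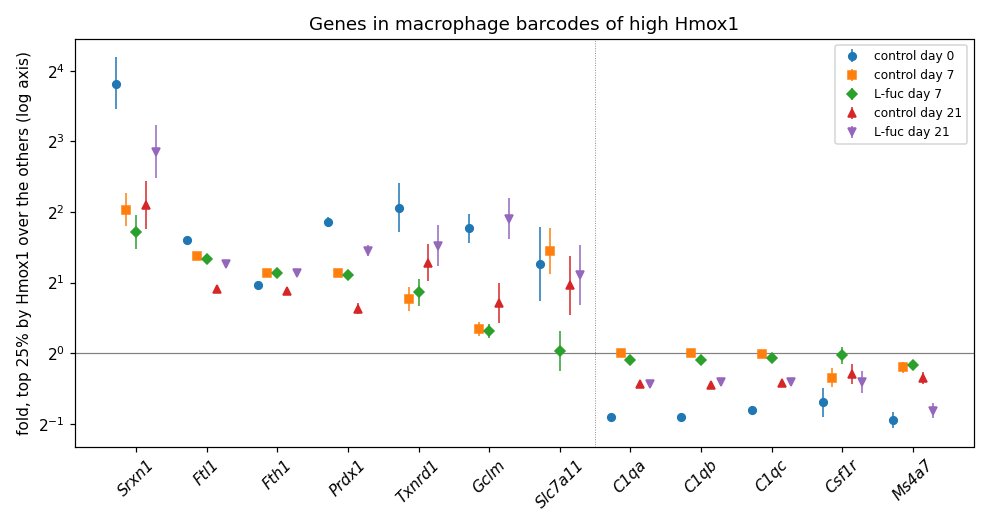
Fold (log axis) of the level in the top 25% of macrophage barcodes by Hmox1 over the remaining macrophage barcodes, for 7 members and, right of the dotted line, 5 macrophage genes, with a symbol for each library and bars for exact conditional 95% intervals. Of the genes drawn, Srxn1 stands highest in all 5 libraries and Ms4a7 is below 1 in all 5; Slc40a1 and Nqo1, which had few UMIs, are not drawn.

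Around the members, 87 other genes of heme, iron and NRF2 biology in 5 lists were counted in the same fits. Of 17 heme genes tested, 7 were higher and 4 lower in macrophages than in tumor barcodes, and 7 were higher and 2 lower than in the other Ptprc-positive barcodes. The genes that act next to heme oxygenase were among those higher, namely the biliverdin reductases Blvra (log2 1.97 ± 0.15 against tumor, 65.1 ± 13.3 SD CPM in macrophages) and Blvrb (1.82 ± 0.18, 189 ± 24.3 SD CPM), and the receptor Lrp1, which takes up heme bound to hemopexin (1.70 ± 0.24). Alad, an enzyme of heme synthesis, was lower at −0.55 ± 0.16. The uptake receptor Cd163 was at 1.63 ± 1.69 (SD, n = 5 libraries) CPM in macrophages and was not called.

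Of 17 iron genes tested from a list of 20, 6 were higher and 4 lower in macrophages than in tumor barcodes, and 7 and 3 against the other Ptprc-positive barcodes. The phagosomal metal transporter Slc11a1 differed most (7.62 ± 0.64, with 170 ± 49.6 SD CPM in macrophages and 0.888 ± 0.805 in tumor). Next was the importer Slc39a8 (6.11 ± 0.61), though at only 1.95 ± 0.535 SD CPM in macrophages and 0.0329 ± 0.0591 in tumor. Hfe (2.71 ± 0.25) followed, while the transferrin receptor Tfrc (−0.69 ± 0.15) was lower. Among 10 NRF2 regulators 8 were higher and 1 lower against tumor barcodes, and 7 and 1 against the others. Nfe2l2 itself was at 196 ± 33.3 (SD) CPM in macrophages and 48.1 ± 4.34 in tumor barcodes (log2 2.58 ± 0.14, adjusted p = 1.94e-06), the repressor Bach1 at 76.2 ± 17.9 and 39.8 ± 4.96 (1.49 ± 0.15), and the KEAP1-binding adaptor Sqstm1 differed by 1.22 ± 0.11. Cul3, the ubiquitin ligase scaffold that acts with KEAP1, was lower at −0.51 ± 0.14.

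Of 24 other NRF2 targets 17 were higher and 7 lower in macrophages than in tumor barcodes, and 12 and 1 against the others. The glutathione transferases Gstm1 (3.57 ± 0.33) and Mgst1 (3.51 ± 0.35) and the pentose phosphate enzyme Pgd (1.89 ± 0.14) were higher, whereas Gstp1 was lower (−1.04 ± 0.15; 148 ± 28.6 SD CPM in macrophages and 457 ± 121 in tumor). In the list of 16 glutathione and ferroptosis genes 8 were higher and 3 lower against tumor barcodes, and 8 and 1 against the others. Glutaredoxin, Glrx (3.37 ± 0.29), the peroxidase Gpx1 (2.35 ± 0.22) and Prdx5 (2.08 ± 0.14) were higher and Ggct, which degrades gamma-glutamyl peptides, was lower (−1.65 ± 0.19). These counts stand beside the 35.9% of all genes that were higher and 33.1% lower against tumor barcodes, and the medians of the lists were −0.20 for heme, 0.16 for iron, 0.90 for NRF2 regulators, 1.04 for other NRF2 targets and 0.29 for glutathione and ferroptosis, with 0.02 over all genes. Against the other Ptprc-positive barcodes, where 16.7% of all genes were higher and 14.8% lower, the medians were 0.27, 0.10, 0.64, 0.61 and 0.40 in the same order of lists, with −0.11 over all genes.

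Between L-fuc and control macrophages, few genes of these lists passed 2-fold. At day 7 they were Me1, a source of NADPH (0.491, 0.443 to 0.543), the glutathione transferase Gsta4 (0.415, 0.370 to 0.466) and the scavenger receptor Cd36 (0.474, 0.366 to 0.612), all lower and all from the list of other NRF2 targets, where 4.39% of all genes were 2-fold lower and 3.07% higher. At day 21 Gsta4 (2.87, 2.01 to 4.17), Cd36 (3.27, 2.41 to 4.49) and Chac1, which degrades glutathione (4.30 on 38 and 11 UMIs), were higher and the siderophore-binding protein Lcn2 was lower (0.146 on 4 and 34 UMIs), where 3.5% of all genes were 2-fold higher and 0.865% lower. No heme gene and no NRF2 regulator was past 2-fold in macrophages at either day. In other Ptprc-positive barcodes 5 list genes were higher at day 7, led by Osgin1 (4.13, 3.29 to 5.23) and the neutrophil granule gene Lcn2 (4.11, 3.60 to 4.70), with Cbr1 (2.63), Gstm1 (2.11) and Trim16 (2.04), and Gsta4 (0.414), Cd36 (0.325) and Me1 (0.500) were lower, where 9.51% of all genes were higher and 8.28% lower. Of these day 7 genes, 4 of the 5 higher and all of the lower ones came from the 24 other NRF2 targets tested. The remaining one was 1 of 16 iron genes. At day 21, 12 list genes were lower and none higher in that class, from Gsta4 (0.196) and Osgin1 (0.210) to Ugdh (0.496). They were 8 of the 21 other NRF2 targets tested, 2 of 12 iron genes and 1 of 10 NRF2 regulators. The rest was 1 of 14 glutathione and ferroptosis genes, with 0 of 13 heme genes. Of all genes in the class 10.9% were lower and 2.88% higher, and the median log2 fold of all genes was −0.27. Tumor barcodes had Lcn2 higher (2.15) and Slc11a1 (0.369) and Cd36 (0.252) lower at day 7, where 1.59% of all genes were higher and 4.43% lower, and Gstm1 lower (0.483 on 8 and 24 UMIs) at day 21, where 1.69% were higher and 0.855% lower.

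Genes whose levels ran most like each member over the 15 sums were found by Pearson correlation of log2 (CPM + 1), among 6444 genes with a mean of at least 20 CPM. The sums share libraries and classes, so these correlations describe the pattern and carry no test. Hmox1 was most like the lysosomal protease inhibitor Cstb (r = 0.985), the galectin Lgals3 (0.979) and the lysosomal sterol carrier Npc2 (0.952). Fth1 was most like Blvrb (0.982), Eif4ebp1 (0.972) and Amdhd2 (0.967), and Ftl1 was most like the lysosomal protease Ctsa (0.979), Itm2b (0.976) and Sh3glb1 (0.970). For Srxn1 they were Lrpap1 (0.962), the lysosomal membrane protein Lamp1 (0.951) and the heme transporter Slc48a1 (0.947). Blvrb and Slc48a1 also stand in the heme list.

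Slc7a11 followed other genes than these, with Pim1 (0.983), Glipr1 (0.973) and the receptor Hcar2 (0.972). For Prdx1 they were Timp2 (0.946), Atp6v1g1 (0.940) and Syngr1 (0.940), and for Gclm Gm10076 (0.927), the ribosomal gene Rps18 (0.924) and the mitochondrial gene Ndufa2 (0.871). Txnrd1 was most like Zmiz1 (0.904), Rhoq (0.882) and Ago3 (0.880). The 2 lowest members were Nqo1 and Slc40a1. Nqo1 was most like Nde1 (0.909), Ap2a1 (0.889) and Prpf19 (0.888). Its levels of 0.121 to 1.88 CPM were close to the 1 CPM added before the log, which limits these values. Slc40a1 gave the weakest likeness of all members, with Elk3 (0.816), Pon3 (0.809) and Ccl9 (0.793).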

How the data were processed

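The authors aligned reads to mm10 with Cell Ranger and deposited raw UMI counts for each gene and barcode; the submitters' processing notes name Cell Ranger 3.0 and Seurat 4.0, while the file headers name Cell Ranger 7.1.0. The counts are whole numbers without normalization. Only the 5 gene expression libraries were used, and 5 libraries of T cell receptor sequences were not used here.

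Barcodes were kept and classed by the rule in the text, in Python 3.11.15 (numpy 2.4.6, scipy 1.17.1). No doublet caller was run. Alternatives left out immune barcodes with Sox10 or tumor barcodes with C1q instead, but none left out macrophage barcodes with T cell genes. At least 2 UMIs of Cd3d, Cd3e and Cd3g were in 17.8% of macrophage barcodes at control day 0, 20.03% at control day 7 and 22.8% at L-fuc day 7. The shares were 1.40% at control day 21 and 2.68% at L-fuc day 21. Levels have exact Poisson intervals, folds exact conditional binomial intervals and shares exact Clopper-Pearson intervals, all at 95%. The class fit used edgeR 4.0.16 in R 4.3.3 (TMM, filterByExpr, glmQLFit and glmQLFTest), with adjusted p under 0.05 as the limit. The C1q genes, Ptprc and Sox10 set the classes and were left out of the background shares. The numbers of higher and lower calls compared with and without TMM factors, and the medians over all genes from the class fit, include them. The p-values rest on 5 libraries of pooled mice, each of another condition. They measure how far the class differences varied from library to library, not the spread between mice or replicates. The steps were tested on simulated data.

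Named genes are the 10 members, the list genes called in the same direction in both macrophage contrasts with the 3 largest changes each way, list genes past 2-fold with L-fuc, and the 3 genes most like each member. The values of 1 gene that this rule names are not reported here. The members and lists were chosen with earlier results of these data known. Sources differ on the L-fuc dose (100 mM or 100 nM), so no dose is given with the results. Classes were compared within libraries through the library block. No test between conditions was run, as each is 1 library, and the labels pair no libraries.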

Additional observations from a re-analysis of the deposited data

Results flagged for a closer look

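The L-fuc folds of 9 combinations of gene and class had 95% counting intervals on opposite sides of 1 at the 2 time points, which is why they are listed; each fold compares 1 library with 1 library, and the difference between the days was not tested.

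In macrophages the fold went from 0.519 at day 7 to 1.55 at day 21 for Hmox1, from 0.681 to 1.30 for Srxn1, from 0.799 to 1.22 for Prdx1, from 0.718 to 1.22 for Gclm and from 0.450 to 3.73 for Slc40a1. By the mean of single barcodes Prdx1 was at 0.944 at day 21, below 1 as at day 7. The folds of Slc40a1 rested on few UMIs at both days. Both libraries of a day were made from different mice than those of the other day, and control macrophages held 941 CPM of Hmox1 at day 7 and 452 at day 21, so the level against which L-fuc was set also differed. In the other Ptprc-positive barcodes the fold of Slc7a11 went from 3.07 to 0.293, where the number of barcodes with at least 10 UMIs of S100a8 and S100a9 was 11 in control and 43 in L-fuc at day 7, and 16 in control and 6 in L-fuc at day 21. In tumor barcodes the fold went from 0.812 to 1.15 for Hmox1, from 1.08 to 0.807 for Fth1 and from 1.13 to 0.851 for Ftl1. The day 21 fold of Hmox1 in tumor barcodes was below 1, as at day 7, without the top barcode of each library. Without tumor barcodes with a C1q UMI it was at a log2 fold of −0.54.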

How the results depend on the processing

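Of the 12 alternative settings and 5 left-out libraries of the class fit, none changed the number of members above in macrophages by more than 1.5 times: it was 6 to 9 of 9 against tumor and 5 to 7 against other Ptprc-positive barcodes, and 8 to 9 and 7 to 7 with 1 library left out. Without TMM factors, a setting chosen after seeing the data, Gclm (−0.2238) and Txnrd1 (−0.0379) turned negative between macrophage and tumor. Tumor above other, 1 in the text, was 2 without immune barcodes that hold Sox10, 3 without TMM factors and 0 without the library block; tumor below other, 2 in the text, was 4 with the macrophage limit at 20, and 2 to 3 with 1 library left out, the third being Hmox1 without L-fuc day 7.

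Counts of 2-fold changes over the 30 values of 10 genes in 3 classes are small and moved more. For L-fuc at day 7 the 1 lower became 3 without Sox10 barcodes (Hmox1 in both immune classes was added) and 2 without shared barcodes, by the mean of single barcodes, with a minimum of 10 UMIs, or without the top barcode of each gene, the last also chosen after seeing the data. At day 21 the 1 higher became 2 by the mean of single barcodes, where Slc7a11 in tumor barcodes was added at a log2 fold of 2.31. The count of higher became 0 without the top barcode, since too few UMIs of Slc40a1 were left. The 1 lower became 2 with the limit at 20, by the mean of single barcodes or with 10 UMIs. From day 0 to day 7 the 3 higher became 5 by the mean of single barcodes, and the 4 lower became 2 without Sox10 barcodes and 1 without the top barcode. From day 7 to day 21 the 4 higher became 2 when tumor barcodes with C1q were left out, and Slc7a11 in tumor barcodes was −0.1832 by the mean of single barcodes. Where no cause is named, the cause was not tested. Depth limits Nqo1 and Slc40a1 most.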

Other observations

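The barcodes in none of the 3 classes, which have no UMI of Ptprc, none of Sox10 and fewer than 10 of the C1q genes, also held Hmox1, at 814 CPM at control day 0, 162 at control day 7, 179 at L-fuc day 7, 182 at control day 21 and 125 at L-fuc day 21. Their Ftl1 level was 10432 CPM at control day 0 and 2897 to 4520 in the other libraries. At control day 0 a single one of these barcodes held 18.8% of their Hmox1 UMIs.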
